A study of Mus musculus with 4 samples.

Results

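Ghrelin cells are the endocrine cells that make the peptide hormone ghrelin, encoded by Ghrl. Here they are the 156 of 29731 quality-filtered cells of mouse small-intestinal crypts in which Ghrl led the hormone transcripts. A cell was kept if it had at least 500 detected genes and at most 20% of its UMIs from mitochondrial genes. A UMI (unique molecular identifier) tags 1 captured transcript, so that its PCR copies count once, and CP10K is a gene's UMIs per 10000 UMIs of the cell. A kept cell was a ghrelin cell if Ghrl reached 20 CP10K, was the highest of Gcg, Gip, Cck, Sst, Ghrl and Nts, and fewer than 2 UMIs of Neurog3 were present. Neurog3, the transcription factor of endocrine progenitors, thus kept early progenitors out.

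The study profiled single epithelial cells from crypts of the mouse small intestine, taken before and after sleep deprivation, with a 10x Genomics 3′ library kit. There are 4 libraries, 0D-1 and 0D-2 in the group labelled 0D and 2D-1 and 2D-2 in the group labelled 2D. The labels do not spell out D, give no strain, age, sex or genotype, and leave unsaid whether the libraries stem from separate animals. The p-values of 2D against 0D within ghrelin cells therefore measure the spread between libraries, which may be technical. Tests that compare cell classes take both classes from each library. Their p-values measure how the class difference varies from library to library.

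Ghrelin is best known as a stomach hormone of X/A-like cells that is released in fasting, promotes feeding and acts through the receptor encoded by Ghsr, and scattered cells of the small intestine make it too. Its precursor is cut by the prohormone convertase that Pcsk1 encodes. The peptide must also carry a medium-chain fatty acid to act on its receptor, and the enzyme that attaches it is ghrelin O-acyltransferase, encoded by Mboat4. Intestinal endocrine cells arise from progenitors that switch on Neurog3, and cells that hold transcripts of more than 1 hormone are common among them.

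Ghrl itself is on chromosome 6 (113716119 to 113719880, minus strand) and Mboat4 on chromosome 8 (34115030 to 34125182, plus strand) of build GRCm38. The 0D libraries held 31 and 37 members and the 2D libraries 40 and 48. Where 4 values are given without names below, they follow this order, replicate 1 before replicate 2. In all, 446 cells reached 20 CP10K of Ghrl. Of these, 194 were left out because another hormone of the rule was as high or higher, and 96 more because of Neurog3. The members held 61.5% of all Ghrl UMIs in 0D-1, 45.1% in 0D-2, 41.2% in 2D-1 and 59.4% in 2D-2. Just inside the threshold, at 20 to 30 CP10K, were 0, 2, 2 and 2 members. Just outside it, at 10 to 20 CP10K, were 4, 4, 4 and 8 cells. The Ghrl values chose the members and are given as a description. Ghrl made up from 0.203% to 57.3% of a member's UMIs, with a median of 4.87%. By library the median was 5.96% in 0D-1, 4.81% in 0D-2, 5.09% in 2D-1 and 3.42% in 2D-2.

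Most members carried the endocrine markers, and some of the deepest carried few. A UMI of Chga, which encodes the granule protein chromogranin A, was found in 149 of 156 members (95.5%). At least 3 of 12 pan-endocrine genes were detected in 153 members, and 155 had 5 or more Ghrl UMIs. With 20 CP10K over those genes required as well, 146 of 156 members counted as endocrine cells. Among the 8 members of 0D over 10000 UMIs, 4 had pan-endocrine sums of 1.55, 4.04, 6.26 and 7.63 CP10K. At the other end, a 2D-1 member had a pan-endocrine sum of 1618 CP10K and 310 Chga UMIs, with Ghrl at 44.1 CP10K. A 0D-2 member had 1019 CP10K and 109 Chga UMIs, with Ghrl at 26.3 CP10K. The part of these cells in the summed granin and pan-endocrine values below was not tested. Markers of other lineages exceeded 500 CP10K in 13 members, 2 in 0D-1, 2 in 0D-2, 3 in 2D-1 and 6 in 2D-2, and 17 members were among the 8% highest doublet scores of their libraries. With each cell thinned to 3000 UMIs and shallower cells left out (26 and 25 members stayed in the 0D libraries, 36 and 37 in the 2D libraries), Chga was present in 94.1% ± 3.89 of ghrelin cells (SD, n = 4 libraries). In cells rich in markers of other lineages (at least 1000 CP10K over 34 Paneth, goblet, enterocyte, stem, tuft and immune markers) the share was 3.02% ± 1.36 at the same depth. The unthinned shares were 89.6 to 100% in ghrelin cells, at median depths of 4260 to 7790.5 UMIs, and 6.32 to 13.8% in cells of other lineages, at 9160 to 13247.5 UMIs. No UMI of the immune markers Ptprc, Cd79a, Jchain and Cd3e was found in any ghrelin cell.

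Quality-filtered cells numbered 7025 to 7988 per library with 93090534 to 113758758 UMIs, and ghrelin cells summed to 227324 to 285461 UMIs per library. A few very deep members carried much of the 0D sums. Members over 10000 UMIs numbered 4 in 0D-1, 4 in 0D-2, 3 in 2D-1 and 0 in 2D-2, and the 8 in 0D held 41.1% of all 0D member UMIs. The deepest member of 0D-2 had 84103 UMIs, 31.0% of that library's sum. Its Ghrl level of 20.8 CP10K was just inside the threshold, and its 12 pan-endocrine genes together reached 1.55 CP10K. The deepest member of 0D-1 had 32749 UMIs, 14.1% of the sum, with Ghrl at 107 CP10K and a doublet score of 0.529, the highest among the members of that library. In 2D-1 and 2D-2 the deepest members had 13134 and 8885 UMIs. Library 2D-1 stood apart by its interferon-response genes, whose sum over 30 genes in ghrelin cells was 3363 CPM (a gene's share of the summed UMIs, scaled to 1e6) against 1204 in 0D-1, 1524 in 0D-2 and 1289 in 2D-2. Between any 2 libraries 13 to 16 barcodes of quality-filtered cells were shared, and 0 barcodes of ghrelin cells.

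**Figure D1:**
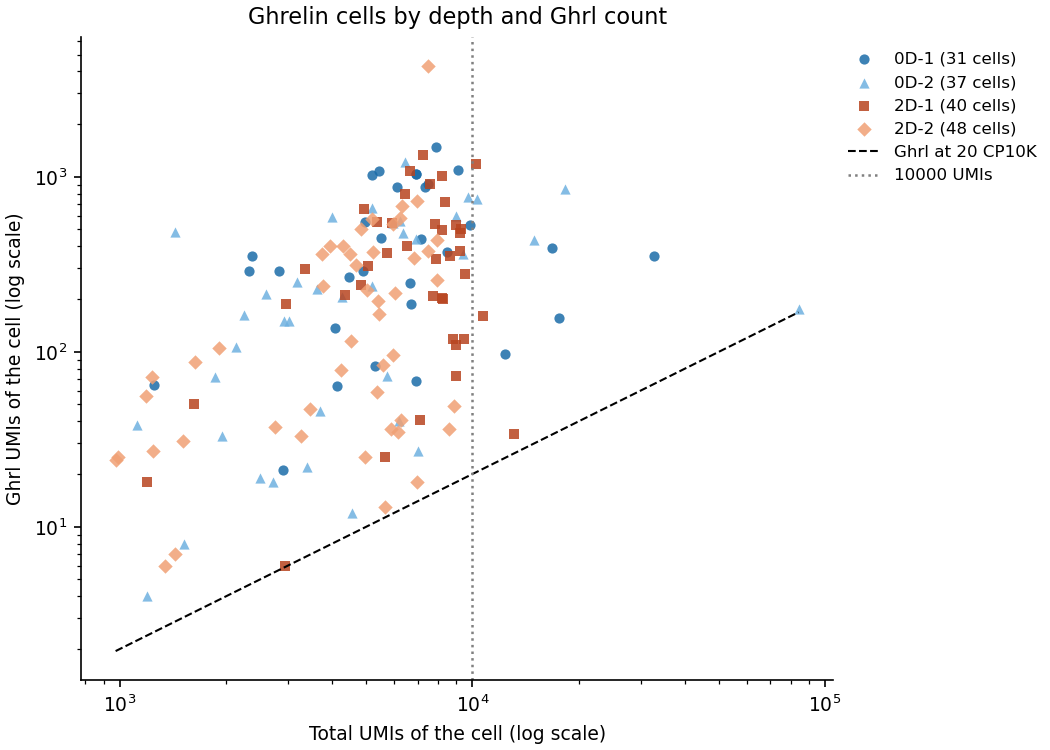
Ghrl UMIs (vertical) against total UMIs (horizontal) of each of the 156 ghrelin cells, both on log scales, with 1 point per cell and 1 colour and shape per library. The dashed line marks Ghrl at 20 CP10K and the dotted line 10000 UMIs. To the right of the dotted line lie 4 cells of 0D-1, 4 of 0D-2, 3 of 2D-1 and none of 2D-2, and the deepest cell of 0D-2 lies on the dashed line at 84103 UMIs.

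Ghrelin cells made up a slightly larger share of all cells in the 2D libraries and a slightly smaller share of the endocrine cells, with neither difference beyond what 2 against 2 libraries can test. Of quality-filtered cells they were 0.409% in 0D-1 (95% exact Clopper-Pearson interval 0.278 to 0.580), 0.519% in 0D-2 (0.366 to 0.714), 0.569% in 2D-1 (0.407 to 0.775) and 0.601% in 2D-2 (0.443 to 0.796). The intervals cover counting error only and overlap among all 4 libraries, although both 2D values lay above both 0D values. The means were 0.464% ± 0.0779 in 0D and 0.585% ± 0.0223 in 2D (SD, n = 2), a difference of 0.121 percentage points with a two-sided exact permutation p of 0.33, the smallest that this design allows.

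Endocrine cells were taken as those with at least 3 of the 12 pan-endocrine genes and 20 CP10K over them, and numbered 510, 567, 754 and 868. The 28, 34, 39 and 45 ghrelin cells among them were 5.49%, 6.0%, 5.17% and 5.18%. Here both 2D values lay below both 0D values. The means were 5.74% ± 0.358 in 0D and 5.18% ± 0.00843 in 2D (SD, n = 2), a difference of -0.565 percentage points (two-sided exact permutation p = 0.33). With at most 10% mitochondrial UMIs per cell the 2D minus 0D share of ghrelin cells among endocrine cells was -0.0117 percentage points (exact permutation p = 1). With ghrelin cells over 500 CP10K of other-lineage markers left out, a limit chosen after seeing the data, it was -0.955. That limit was applied to the ghrelin cells only, and the endocrine cells they were divided by stayed at 510, 567, 754 and 868. In the 10% setting the share of ghrelin cells among quality-filtered cells differed by 0.238 percentage points, and without 0D-1 by 0.0664.

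**Figure D2:**
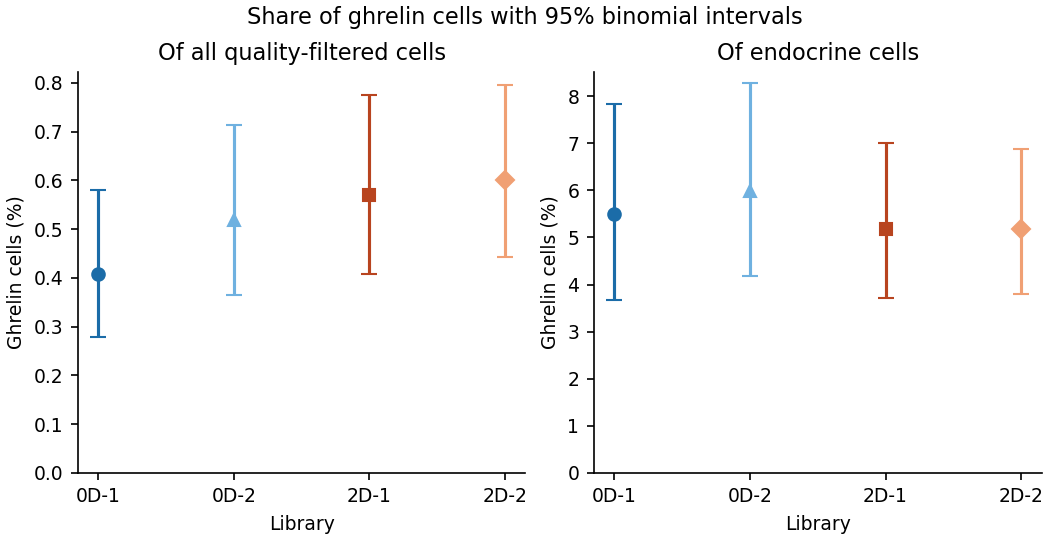
Share of ghrelin cells (%) in each library, among all quality-filtered cells (left) and among endocrine cells (right). Points are the libraries and bars the exact 95% binomial intervals, which overlap in both panels; the 2D points lie above the 0D points on the left, at 0.569 and 0.601%, and below them on the right, at 5.17 and 5.18%.

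Many ghrelin cells also held transcripts of cholecystokinin (Cck) or proglucagon (Gcg), while the transcripts of K cells (Gip) and D cells (Sst) did not reach 20 CP10K in any member. These hormones were part of the rule, so the counts are a description. Cck reached 20 CP10K in 46 of 156 members (29.5%), Gcg in 28 (17.9%), Nts, which encodes neurotensin, in 1 and Gip and Sst in 0. With 48 members positive for Cck or Gcg (30.8%), 26 were positive for both. By library, Cck or Gcg reached that level in 11 of 31, 9 of 37, 17 of 40 and 11 of 48 members. No UMI was found of Cck in 77 members, of Gcg in 116, of Gip in 140, of Sst in 150 and of Nts in 154. At 3000 UMIs per cell, 48.2% ± 3.95 of ghrelin cells had a Cck UMI and 26.9% ± 8.55 a Gcg UMI (SD, n = 4 libraries). In cells of other lineages the shares at the same depth were 3.12% ± 1.41 and 0.95% ± 0.661. For Gip the mean share in ghrelin cells, 2.74% ± 3.16, was below the 4.47% ± 1.60 of cells of other lineages, and for Sst it was 0.962% ± 1.92 against 1.13% ± 0.403. The libraries differed for Gip. Without thinning, 31 of 31, 35 of 37, 31 of 40 and 43 of 48 members had no Gip UMI. At 3000 UMIs the mean Gip and Sst shares were thus not above those of other lineages, which does not settle single libraries. Without thinning, Cck was found in 51.0% ± 6.03 of ghrelin cells and 10.6% ± 4.49 of cells of other lineages, and Gcg in 25.9% ± 9.98 and 3.74% ± 1.60.

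The ghrelin cells were next set against the other 997 peptide-hormone cells, those led by Cck (412), Gip (350), Sst (138), Gcg (76) or Nts (21). The UMIs of each class were added up within a library, and edgeR's quasi-likelihood test compared the sums with the library as a block. Of 8312 genes tested, 634 passed an adjusted p of 0.05 (7.63%), 285 higher in ghrelin cells (3.43%) and 349 lower (4.2%). The median log2 difference over all genes tested was -0.01. An adjusted p in the next paragraphs is from this test, and the 7 genes of the rule are left out of it.

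Of the genes that make active ghrelin, the acyltransferase gene was the one that passed as higher in ghrelin cells. Mboat4 was at 228, 140, 231 and 158 CPM in ghrelin cells and at 23, 18.0, 24.7 and 24.2 CPM in the other peptide-hormone cells. Every ghrelin value lay above every value of the other cells, at a log2 difference of 2.96 ± 0.17 (SE, edgeR adjusted p = 5.79e-08). At 3000 UMIs per cell, Mboat4 was detected in 41.5% ± 17.1 of ghrelin cells, 8.94% ± 1.24 of other peptide-hormone cells and 0.05% ± 0.1 of cells of other lineages (SD, n = 4 libraries). The unthinned shares were 59.5% ± 21.3, 11.4% ± 2.25 and 0.311% ± 0.101. By leading hormone its mean level was 189 ± 46.9 CPM in ghrelin cells, 32.7 ± 6.93 in cells led by Cck, 30.4 ± 10.6 in those led by Sst, 26.8 ± 21.6 in those led by Gcg, 5.94 ± 4.64 in those led by Gip and 0 in those led by Nts. Cells led by Nts numbered 21 in all, 3 to 10 per library, so that 0 is not read as absence. The cells led by Cck, Sst or Gcg do not differ among themselves beyond their spread. The convertase gene Pcsk1 did not pass the test (312 ± 96.5 against 276 ± 48.5 CPM, log2 0.06 ± 0.15, adjusted p = 0.873). Neither did Cpe, the carboxypeptidase that trims prohormones (log2 -0.34 ± 0.14, adjusted p = 0.178), and Pcsk1n, whose product proSAAS inhibits the convertase, was lower (-0.89 ± 0.15, adjusted p = 0.00192). In all, 1 of the 6 tested genes of this list of 7 was higher and 1 lower, against 3.43% and 4.2% of all genes tested.

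Granule and exocytosis genes split in both directions. Chgb, which encodes the granule protein chromogranin B, was at 1002, 2276, 3265 and 1707 CPM in ghrelin cells and at 11630, 12644, 13709 and 11512 CPM in the other peptide-hormone cells. The groups did not overlap (log2 -2.79 ± 0.17 SE, adjusted p = 1.1e-07). Scg2 (secretogranin II, -0.94) and Resp18 (-0.98) were also lower, the call for Scg2 being lost without 0D-1, without 2D-2 and with DESeq2, and the calcium sensor gene Syt7 (0.86), the vesicle priming gene Cadps (0.62) and the active zone gene Rimbp2 (0.55) were higher. Of 23 tested genes of the granin and secretion list of 24, 3 were higher, 3 lower and 17 did not pass, with a median log2 difference of -0.07. The shares over all genes tested were 3.43% higher and 4.2% lower. Chga did not pass (log2 0.30 ± 0.14, adjusted p = 0.233).

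Among endocrine transcription factors, 7 of 26 tested genes of a list of 28 were higher in ghrelin cells and 2 lower, and the median log2 difference was 0.24. Over all genes tested, 3.43% were called higher and 4.2% lower. Tox3, an HMG-box factor gene, was at 396, 435, 645 and 598 CPM in ghrelin cells against 126, 174, 192 and 191 CPM in the other peptide-hormone cells, with no overlap (log2 1.5 ± 0.13 SE, adjusted p = 3.32e-06). Prox1 (1.40 ± 0.16) and the endocrine factor genes Nkx2-2 (1.11 ± 0.13) and Isl1 (0.89 ± 0.13) were higher as well. Isl1 was detected at 3000 UMIs in 90.4% ± 5.59 of ghrelin cells, 73.4% ± 3.27 of other peptide-hormone cells and 0.225% ± 0.15 of cells of other lineages (SD, n = 4 libraries). Without thinning, Isl1 was found in 92.0% ± 3.50 of ghrelin cells. Sox4 (0.83 ± 0.18) and Rfx3 (0.71 ± 0.17) passed too, Sox4 with 1 library, 0D-2, on the other side. The call was lost in 7 alternatives for Rfx3 and in 3 for Sox4, each time that 0D-1, 2D-1 or 2D-2 was left out among them. Rfx6, a winged-helix factor gene of endocrine cells, was lower (-1.26 ± 0.22), and so was Hhex, a gene of D cells, which had 0 UMIs in the ghrelin cells of all 4 libraries.

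Set by leading hormone, ghrelin cells had the highest mean level of Isl1 and Tox3 and a lower level of Etv1 than cells led by Gcg or Cck. Isl1 was at 1298 ± 275 CPM in ghrelin cells, 795 ± 247 in cells led by Sst, 722 ± 67.8 in those led by Gip, 654 ± 82.7 in those led by Gcg and 573 ± 20.1 in those led by Cck (SD, n = 4 libraries). The cells led by Sst, Gip and Gcg do not differ among themselves beyond their spread. Etv1, an ETS factor gene, was highest in cells led by Gcg (959 ± 97.5 CPM) and at 259 ± 42.6 CPM in ghrelin cells, with 387 ± 93.2 in cells led by Cck and 55.2 ± 7.09 in those led by Gip. Tox3 was highest in ghrelin cells (518 ± 122 CPM), followed by cells led by Gcg (280 ± 103).

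**Figure D3:**
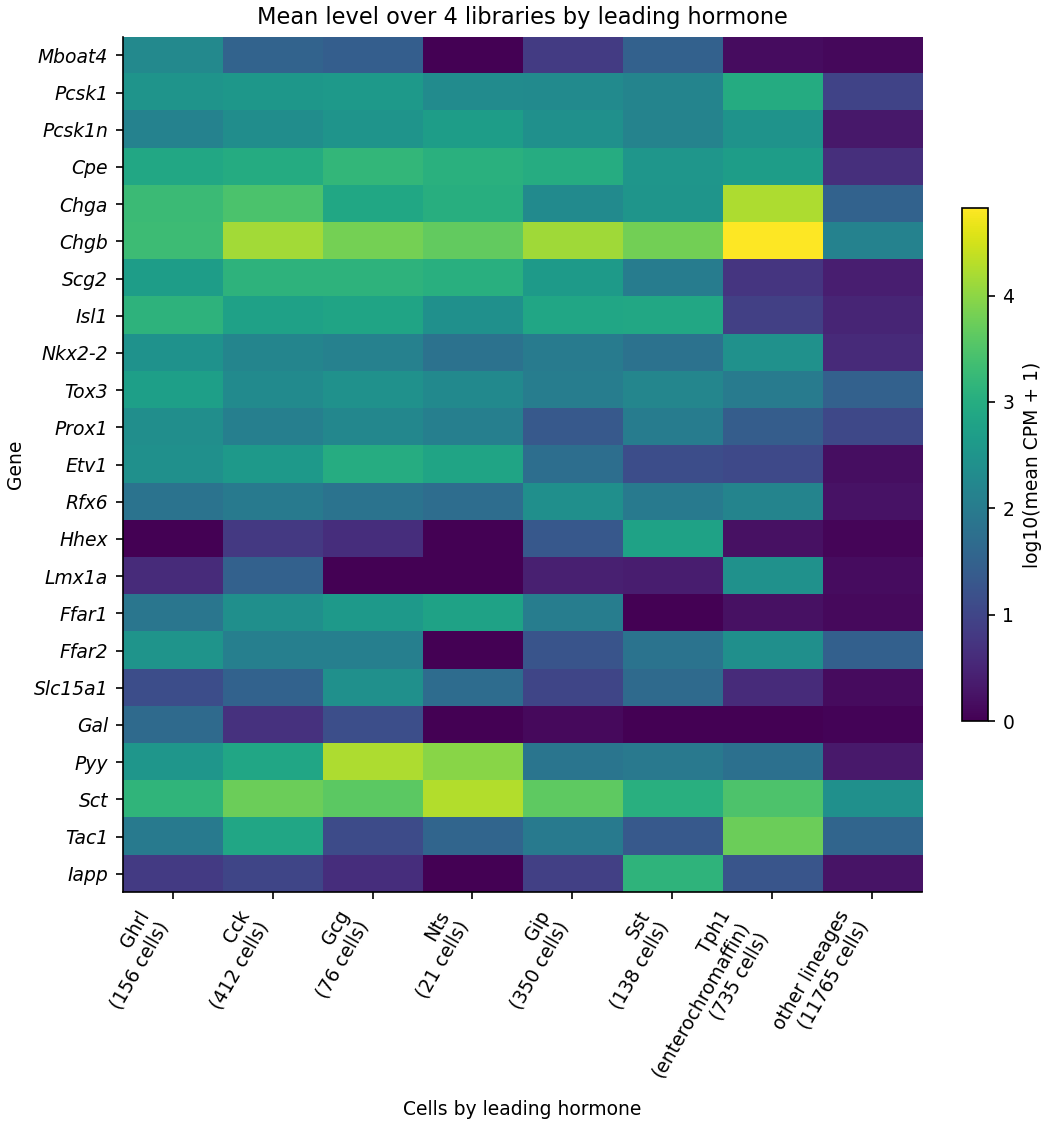
Mean CPM over the 4 libraries of 23 genes (rows) in cells grouped by leading hormone, in enterochromaffin cells and in cells rich in markers of other lineages (columns), as log10 of the mean CPM plus 1. The ghrelin column is brightest for Mboat4, Isl1, Tox3, Prox1 and Gal, and dark for Hhex, Lmx1a and Iapp; Chgb is lower there than in every other endocrine column.

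Nutrient and hormone receptors showed a short list of differences, 2 genes higher and 3 lower. Over all genes tested the shares were 3.43% and 4.2%. Ffar2, the receptor gene for short-chain fatty acids, was at 271, 369, 326 and 286 CPM in ghrelin cells and at 72.5, 80.1, 82.3 and 74.7 CPM in the other peptide-hormone cells, with no overlap (log2 1.91 ± 0.13 SE, adjusted p = 3.04e-07). Gipr, the GIP receptor gene, was also higher, from a low level (25.9 ± 9.78 against 7.85 ± 3.32 CPM, log2 1.55 ± 0.41, adjusted p = 0.0335), a call lost in 6 alternatives, without 0D-1, 0D-2 or 2D-2 among them. Ffar1, the receptor gene for long-chain fatty acids (log2 -1.36 ± 0.23), the glucose transporter gene Slc5a1 (-0.72 ± 0.16) and the peptide transporter gene Slc15a1 (-1.79 ± 0.33) were lower, with the call for Slc5a1 lost in 3 alternatives, without 0D-1 or 2D-1 among them. The other 9 of 14 tested genes of this list of 33 did not pass, the KATP channel genes Kcnj11 and Abcc8 among them (log2 -0.54 ± 0.27 and -0.29 ± 0.16). Adrb1, which is reported on gastric ghrelin cells, was not among the tested genes and was found in 0 to 4.0% of thinned ghrelin cells per library. No UMI of Ghsr, Lepr or Casr was found in ghrelin cells, which at a summed depth of 1016453 UMIs allows up to 2.95 CPM (3 counts).

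Hormone genes outside the rule were mostly lower in ghrelin cells. Peptide YY (Pyy, log2 -2.45 ± 0.25), secretin (Sct, -1.80 ± 0.15), substance P (Tac1, -2.20 ± 0.26), the serotonin synthesis gene Tph1 (-2.99 ± 0.30) and amylin (Iapp, -4.77 ± 0.40) passed. Galanin (Gal) was higher. It was at 73.1, 48.0, 35.0 and 22.0 CPM in ghrelin cells and at 1.28 to 3.48 CPM in the other peptide-hormone cells (log2 3.75 ± 0.41 SE, adjusted p = 5.49e-05). At 3000 UMIs it was detected in 10.7% ± 4.74 of ghrelin cells and in 0.025% ± 0.05 of cells of other lineages (SD, n = 4 libraries). The remaining 5 of 11 tested genes did not pass. Over all genes tested, 3.43% passed as higher and 4.2% as lower.

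The largest positive differences were in genes outside the lists. Ooep, named for its expression in oocytes (chromosome 9, 78376109 to 78378725), was at 219, 144, 319 and 589 CPM in ghrelin cells and at 4.39 to 9.87 CPM in the other peptide-hormone cells (log2 5.41 ± 0.26 SE, adjusted p = 9.38e-09). Plb1, a phospholipase gene (chromosome 5, 32232708 to 32366520), was at 254, 291, 249 and 154 CPM against 3.48 to 6.41 CPM (log2 5.25 ± 0.21 SE). Fxyd2, which encodes a regulatory subunit of the sodium pump (chromosome 9, 45399669 to 45410278), was at 305, 266, 207 and 220 CPM against 4.49 to 7.14 CPM (log2 5.17 ± 0.20 SE). In each of these 3 genes all ghrelin values lay above all values of the other cells. Zcchc12 (log2 4.65), the acyl-CoA synthetase gene Acsl1 (3.34), the MAGE family gene Maged2 (3.22), the vasopressin receptor gene Avpr1b (2.64), Cd177 (2.47), the neuronal factor gene Neurod2 (2.40), Tmem184c (2.39), Ceacam10 (2.29) and the ephrin receptor gene Ephb3 (2.22) followed, each higher in 4 of 4 libraries, as were 17.1% of all genes tested. Serpina1c (3.47) and Serpina1e (2.78), copies of the alpha-1-antitrypsin gene, were higher too, and their near-identical sequences make it uncertain which copy the reads came from.

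Among the largest negative differences were 2 lipid-binding genes. Fabp5, a fatty acid binding protein gene, was at 51.6, 44.3, 63.1 and 39.6 CPM in ghrelin cells and at 3667, 3505, 3374 and 4114 CPM in the other peptide-hormone cells, with no overlap (log2 -6.29 ± 0.17 SE, adjusted p = 3.45e-11). Rbp2, the intestinal retinol binding protein gene, was at 17.2, 59.0, 56.0 and 70.4 CPM against 929 to 1093 CPM (log2 -4.46 ± 0.22 SE). Hhex and the cannabinoid receptor gene Cnr1 had 0 UMIs in ghrelin cells, so that Hhex was at least 26.0-fold lower and Cnr1 at least 25.1-fold lower, at a floor of 3 counts over the group. Gpx3, Rgs4, Plcxd3, Pkib and Scarb1 were at 1.75 to 3.80 CPM on average in ghrelin cells against 51.7 to 91.3 CPM. Of the markers of Paneth and goblet cells, 4 of 7 in each list passed as lower in ghrelin cells (median log2 -1.12 and -1.08, as for Lyz1 at -1.22 and Muc2 at -1.08). Over all genes tested 4.2% passed as lower. Single libraries went the other way: in 0D-1 the Paneth list summed to 34828 CPM in ghrelin cells and 22648 CPM in the other peptide-hormone cells, and in 0D-2 the goblet list to 14255 and 11520 CPM. These are genes of abundant neighbours of the endocrine cells, and their part in the result was not tested.

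**Figure D4:**
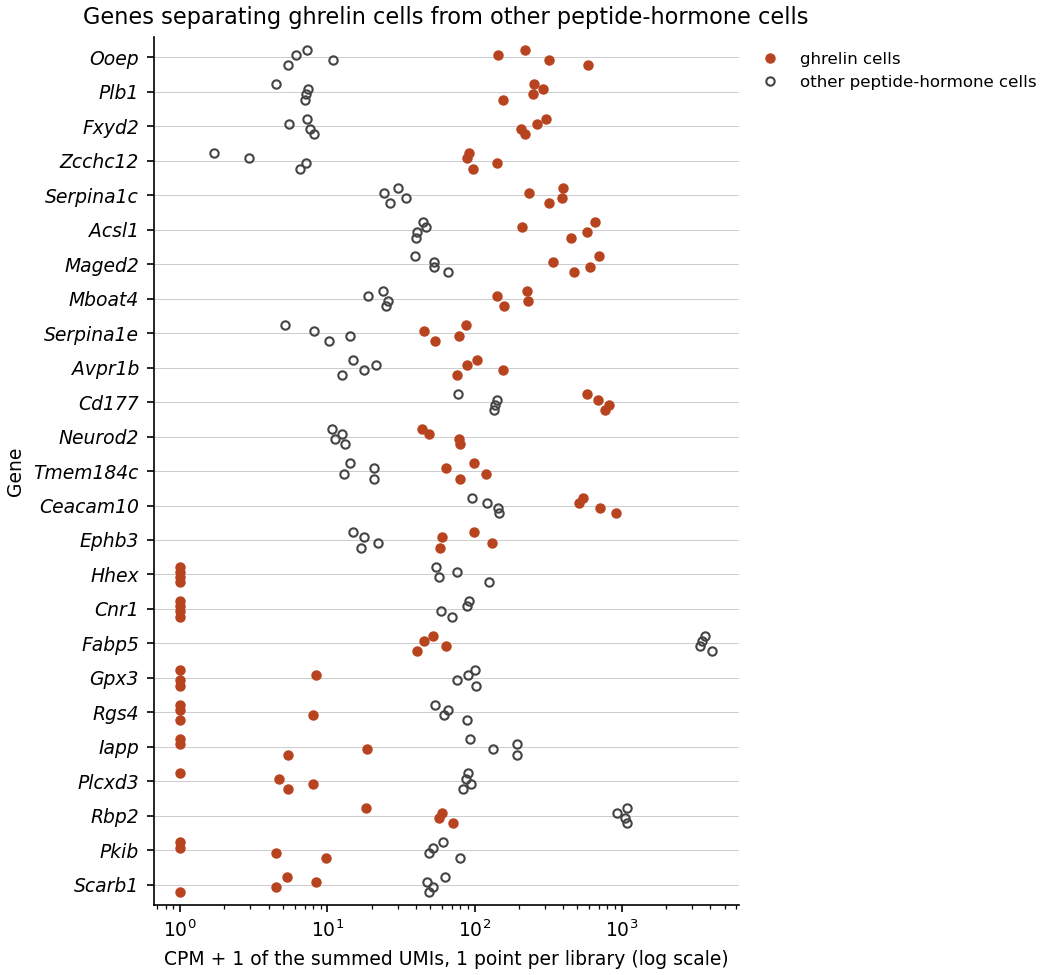
CPM plus 1 (log scale) of the 15 genes with the largest positive and the 10 with the largest negative difference between ghrelin cells (filled) and other peptide-hormone cells (open), 1 point per library. For each of the 25 genes the 4 filled points lie on 1 side of the 4 open points; Hhex and Cnr1 are at 0 CPM in all 4 ghrelin sums.

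Enterochromaffin cells, the serotonin-making endocrine cells (735 cells with Tph1 at 5 CP10K or more, Chga at 20 CP10K or more and no hormone of the rule at 20 CP10K), differed from ghrelin cells in more genes. The same test called 1438 of 6986 genes (20.6%), 576 higher in ghrelin cells (8.25%) and 862 lower (12.3%), with a median log2 difference over all genes of 0.02. Isl1 (1298 ± 275 against 7.33 ± 10.2 CPM) and Mboat4 (189 ± 46.9 against 0.429 ± 0.499 CPM) were near absent from enterochromaffin cells. Etv1 (log2 4.59 ± 0.21) and Scg2 (6.58 ± 0.23) were higher in ghrelin cells too, as were Ffar1 (77.9 ± 47.1 against 0.624 ± 0.764 CPM) and the KATP subunit gene Abcc8 (126 ± 37.4 against 0.922 ± 0.666 CPM). Lmx1a, a homeobox gene of enterochromaffin cells, was at 2.90 ± 1.97 CPM in ghrelin cells and 274 ± 17.0 CPM in enterochromaffin cells. Pcsk1 was lower in ghrelin cells (312 ± 96.5 against 927 ± 90.1 CPM, log2 -1.66 ± 0.15, edgeR adjusted p = 3.78e-07), as was Chgb (log2 -5.20 ± 0.19). Ffar2 did not pass here (313 ± 44.0 against 255 ± 24.8 CPM, log2 0.23 ± 0.12, edgeR adjusted p = 0.22). Of the immediate early list, 8 of 16 tested genes were lower in ghrelin cells and 0 higher, Fos (log2 -1.16) and Jun (-0.92) among them.

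The comparison of 2D with 0D asked what differed in ghrelin cells between the libraries taken before and after sleep deprivation. Ghrl did not separate the groups: its sums were at 64992 and 40609 CPM in 0D-1 and 0D-2 and at 56085 and 60746 CPM in 2D-1 and 2D-2, given as a description because Ghrl chose the cells. Mboat4 was at 228 and 140 CPM in 0D and 231 and 158 CPM in 2D, and the groups overlapped (log2 -0.02 ± 0.30 SE, edgeR adjusted p = 0.993). Pcsk1 was at 301 and 273 CPM in 0D and 448 and 224 CPM in 2D, again with overlap (0.12 ± 0.29, edgeR adjusted p = 0.943). Of the 5 tested genes of ghrelin processing 0 passed, and 0 of the 5 tested receptor genes did, with Ffar2 at log2 -0.18 ± 0.23 and Ffar1 at 1.02 ± 0.41.

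Over all 4389 genes tested, edgeR's quasi-likelihood test on the 4 sums called 29 genes (0.661%), all lower in 2D, and 0 higher, with a median log2 change of -0.00 over all genes. DESeq2 called 17, and 405 genes had an unadjusted edgeR p under 0.05 (9.23%). Hspa8, a constitutive chaperone gene, was at 838 and 797 CPM in 0D and 1615 and 2090 CPM in 2D. Its groups did not overlap, at a log2 change of 1.07 ± 0.22 (SE, edgeR adjusted p = 0.0526). Groups that do not overlap are common with 2 against 2 libraries: 1823 of 4389 genes had none (41.5%), 27.2% higher in 2D and 14.3% lower.

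The called genes included genes of dividing cells, and most of their 0D transcripts sat in a few very deep cells. The mitosis gene Ube2c had 41 UMIs in 0D-1 and 55 in 0D-2 against 2 and 2 in 2D-1 and 2D-2 (log2 -4.63 ± 0.42 SE, edgeR adjusted p = 9.62e-05). The deepest cell of 0D-1 held 85.4% of that library's Ube2c UMIs, and the deepest cell of 0D-2 held 85.5%. Dmbt1, a mucosal glycoprotein gene, had 122 and 294 UMIs in 0D and 9 and 12 in 2D (log2 -4.37 ± 0.39, edgeR adjusted p = 9.62e-05), with 64.8% and 88.8% of the 0D UMIs in the same 2 cells. The cycling genes Top2a (-3.87), Birc5 (-3.39), Hist1h1b (-3.10) and Mki67 (-3.02) and the cyclin gene Ccnd1 (-3.28) passed as well, as did Cenpf, with 20 and 29 UMIs in 0D and 0 and 2 in 2D. Of the 16 genes of the cell cycle list, 4 passed the expression filter, through their 0D values, so that their calls are no result about the list. Ube2c and Dmbt1, outside that list, also passed the filter through their 0D values. Genes that pass in this way can be called only as lower in 2D, so the direction of these calls is no separate result. Cd74, the invariant chain of MHC class II, was at 206 and 332 CPM in 0D and 35.0 and 61.6 CPM in 2D (log2 -2.62 ± 0.33, edgeR adjusted p = 0.00249). It was 1 of 2 tested genes of a list of 7. Cells over 10000 UMIs held 92.8% of its 0D UMIs. Without cells over 10000 UMIs the 7 genes of that list summed to 124 and 140 CPM in 0D and 159 and 202 CPM in 2D. Cps1, Clca3b, C1qbp, Pycard and Aldh1b1 were lower at log2 -2.13 to -2.55.

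For 25 of the 29 genes, at least 50% of the 0D UMIs came from the 8 cells over 10000 UMIs, with a median of 84.7% over the 29 genes against 41.1% of all 0D UMIs. Leaving out members over 10000 UMIs, an alternative chosen after seeing the data, left 13 of the 29 genes to be tested. Of these 13, 4 were called, namely Gm42418, AY036118, Lars2 and mt-Nd2, and 10 kept their sign. Pycard turned to a log2 change of 0.70. With each member thinned to at most 3000 UMIs, also chosen after seeing the data, 2 genes were called, Gm42418 and AY036118. With Ghrl at 50 CP10K or more, which drops the deepest cell of 0D-2, 1 was called. Without 2D-1, where the lone 2D library is assumed to vary like those of 0D, Ube2c, Dmbt1 and Gm42418 were called. The sums of the 16 cell cycle genes were 787 and 845 CPM in 0D and 116 and 185 CPM in 2D, and without the cells over 10000 UMIs they were 222 and 133 CPM in 0D and 131 and 185 CPM in 2D.

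**Figure D5:**
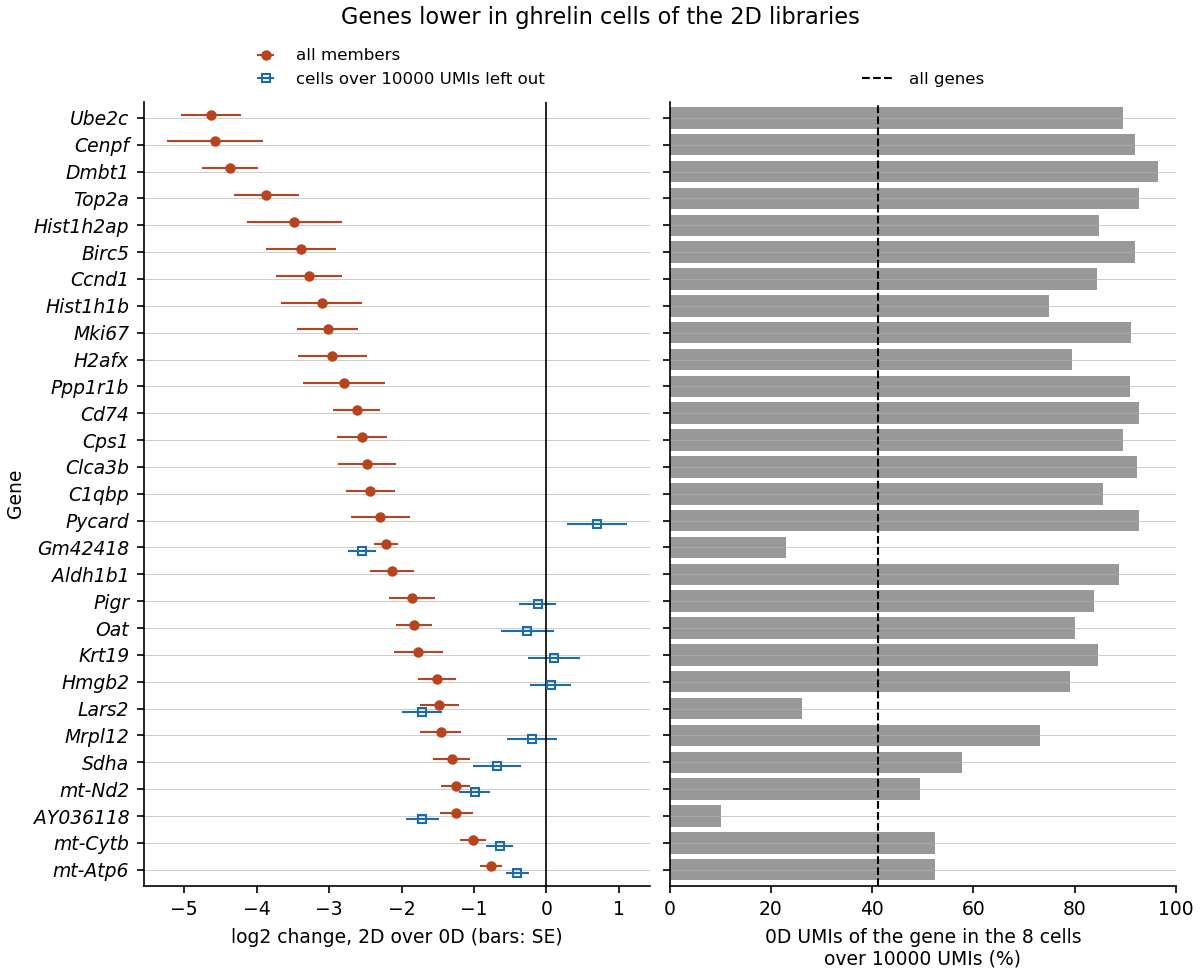
Left, log2 change from 0D to 2D of the 29 called genes (points, bars are SE) in all ghrelin cells (circles) and without cells over 10000 UMIs (squares, drawn for the 13 genes still tested). Right, the percentage of each gene's 0D UMIs found in the 8 cells over 10000 UMIs, from 10.1% to 96.4%, with a dashed line at 41.1% for all genes. Genes with long bars move towards 0 or are no longer tested on the left, while Gm42418, Lars2 and AY036118, with short bars, keep their place.

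Gm42418 kept its change without those cells. It was at 16088 CPM in 0D-1, 22950 in 0D-2, 4586 in 2D-1 and 4439 in 2D-2, with no overlap (log2 -2.22 ± 0.17 SE, edgeR adjusted p = 3.60e-05). The 8 deep cells held 22.9% of its 0D UMIs, and all 156 members had at least 1 of its UMIs. It passed in each of 16 alternatives. AY036118 was at 610 and 539 CPM in 0D and 263 and 264 CPM in 2D (log2 -1.24 ± 0.23, edgeR adjusted p = 0.0263), and Lars2, a mitochondrial leucyl-tRNA synthetase gene, at 421 and 742 against 221 and 229 CPM (-1.48 ± 0.27, edgeR adjusted p = 0.0222). Gm42418 (chromosome 17, 39846958 to 39848788, plus strand) and AY036118 (39847113 to 39848035, minus strand) are annotated as long non-coding RNA genes that overlap on opposite strands. Whether counting used strand is not given in the sources used here, so their reads cannot be told apart with certainty. Which RNA the reads counted for Gm42418, AY036118 and Lars2 came from was not tested, so these values are no result about regulation of those genes. Gm42418, AY036118 and Lars2 were singled out after their values were seen. In the test of the difference of changes, given below, Gm42418 did not pass (log2 -0.40 ± 0.19, edgeR adjusted p = 0.786), and in the other peptide-hormone cells it was at 15647 and 19394 CPM in 0D and 5090 and 4834 CPM in 2D.

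Genes of the mitochondrially encoded list lay lower in the 2D sums. Of 12 tested genes of a list of 13, 0 were above a log2 change of 0, with a median of -0.75. In 11 of the 12 both 2D values lay below both 0D values, as in 14.3% of all genes tested. The test called 3 of the 12, and 0.661% of all genes tested. The complex I subunit gene mt-Nd2 was at 2614 and 2925 CPM in 0D and at 1142 and 1372 CPM in 2D (log2 -1.25 ± 0.20, edgeR adjusted p = 0.00988), followed by mt-Cytb (-1.02 ± 0.18) and mt-Atp6 (-0.77 ± 0.15), whose calls were lost in 5, 8 and 9 of 16 alternatives in that order. Without members over 10000 UMIs the median was -0.50 and 1 gene passed. The mitochondrial percentage itself, by which cells were filtered, had medians of 2.34, 5.68, 3.10 and 2.99% of a member's UMIs, and its part in the result was not tested. With at most 10% mitochondrial UMIs the list median was -0.51 and 0 genes passed. Of 27 nuclear genes of oxidative phosphorylation, all tested, 1 was above 0 (median -0.36), and Sdha, a complex II subunit gene, passed (log2 -1.31 ± 0.25, edgeR adjusted p = 0.0347). The call for Sdha was lost in 8 of 16 alternatives, at -0.68 ± 0.33 (edgeR adjusted p = 0.654) without members over 10000 UMIs, and without 2D-1 or 2D-2. Without members over 10000 UMIs 19 of the 27 lay above 0, with a median of 0.08.

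Endocrine genes lay above 0 as a group without any passing. All 22 tested endocrine transcription factors were above a log2 change of 0 (median 0.41), and 13 had both 2D values above both 0D values, as did 27.2% of all genes tested. Insm1, a zinc finger factor gene of endocrine differentiation, was at 146 and 170 CPM in 0D and 312 and 361 CPM in 2D (log2 0.97 ± 0.24, edgeR adjusted p = 0.116), and Foxa2 at 55.9 and 33.2 against 144 and 114 CPM (1.44 ± 0.36, edgeR adjusted p = 0.125). Among pan-endocrine genes 11 of 12 were above 0 (median 0.43), and among granule and secretion genes 18 of 20 (median 0.22). These too moved with the deep cells. Without members over 10000 UMIs 11 of 21 endocrine factors lay above 0, with a median of 0.03, 5 of 12 pan-endocrine genes (median -0.05) and 3 of 19 granule and secretion genes (median -0.22).

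Immediate early and dissociation-response genes lay above 0 in all 15 tested of a list of 18, with a median of 0.63. In 14 of the 15 both 2D values lay above both 0D values, as in 27.2% of all genes tested. Ier2 was at 387 and 417 CPM in 0D and 743 and 664 CPM in 2D (log2 0.69 ± 0.22, edgeR adjusted p = 0.258), and none passed. Without the members over 10000 UMIs, 15 of 15 still lay above 0, with a median of 0.29, and thinned to 3000 UMIs 13 of 13, with a median of 0.31. Interferon-response genes lay above 0 in 10 of 10 tested (median 0.63, 0 passed). That value rests on 2D-1, without which 3 of 8 tested lay above 0 and the median was -0.06.

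Without members over 10000 UMIs the test called 26 of 3582 genes tested, 21 of them higher in 2D. Over all members 0.661% of genes tested were called. Of the 21, 13 had a Defa symbol, which marks alpha-defensin genes, or were members of the Paneth and goblet lists. Examples were Lyz1 (log2 1.92 ± 0.29), Mmp7 (3.63 ± 0.57), Defa24 (1.75 ± 0.31) and Muc2 (1.28 ± 0.26). Outside those lists, Reg3b (1.89 ± 0.35) and Reg3g (1.68 ± 0.33) were also called higher. The Paneth list summed to 34828 and 3294 CPM in the 0D ghrelin cells and 8506 and 15418 CPM in 2D over all members, all 7 genes being detected in each library, and to 2006 and 5079 CPM in 0D and 9306 and 15418 CPM in 2D without the deep cells. This limit took marker-rich cells mainly from 0D. It removed 2 cells of 0D-1 with other-lineage markers at 2760 and 2767 CP10K, 1 of 0D-2 at 1290 and 1 of 2D-1 at 1039. It kept a 2D-1 cell of 2950 UMIs at 3593 CP10K and 2D-2 cells of 7946, 1431 and 1247 UMIs at 1754, 2558 and 2438 CP10K. Alpha-defensin genes are near-identical copies, so which copy the reads came from is uncertain. In cells rich in other-lineage markers the Paneth list summed to 179321 and 161185 CPM in 0D and 256653 and 217735 CPM in 2D. Those cells were chosen by markers that include the Paneth list, so these sums are a description only. The part of free RNA or of doublets in this result was not tested. Hspa8 passed in this setting (log2 1.03 ± 0.20, edgeR adjusted p = 0.0176), and Fxyd2 was lower (-1.15 ± 0.24, edgeR adjusted p = 0.0237), against -0.54 ± 0.24 over all members.

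The 2D against 0D change of ghrelin cells was last set against that of the other peptide-hormone cells, by the class-by-group term of the same model. Of 9304 genes, 3 passed (0.0322%), all with a more negative change in ghrelin cells, and 576 had an unadjusted edgeR p under 0.05. They were Dmbt1 (log2 difference of changes -3.77 ± 0.39, edgeR adjusted p = 0.000236), Ube2c (-4.43 ± 0.49, 0.000296) and Top2a (-3.32 ± 0.49, 0.0106). Dmbt1 was at 525 and 1085 CPM in the 0D ghrelin cells and 31.5 and 52.8 CPM in 2D. In the other peptide-hormone cells it was at 500 and 541 CPM in 0D and 370 and 332 CPM in 2D. These are the genes that sat in the 2 deepest cells of 0D. Thinned to 3000 UMIs 0 of the 3 passed, without 2D-1, where the lone 2D library is assumed to vary like the others, 0 did, and without members over 10000 UMIs 1 of the 3 was still tested and 0 passed.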

How the data were processed

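Droplet-based 3′ single-cell RNA libraries of crypt cells were measured in 4 samples. The authors deposited UMI counts per gene and cell barcode for each library, with no normalization, and the smallest deposited barcode held 500 UMIs. The submitters' processing notes name Cell Ranger 2.1.1 and build mm10, whereas the deposited file headers name cellranger 7.0.0. For the annotation and the treatment of intronic reads, nothing is stated per the labels or headers. Of 32285 gene IDs, 32158 were found in a mouse GENCODE annotation of GRCm38.

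Cells were filtered and classed by the stated rule with scanpy 1.11.5. Counts were summed per library and class, genes with low sums were removed by edgeR's expression filter, and edgeR 4.0.16 (quasi-likelihood test, TMM scaling, Benjamini-Hochberg adjustment over all genes tested, in R 4.3.3) compared the sums. DESeq2 1.42.0 was an alternative. Shares were compared by exact permutation of libraries with Clopper-Pearson intervals. The fits were tested on simulated data, drawn independently at a fixed dispersion. Those data hold no deep cell that carries much of a sum, so they say nothing about calls that rest on such cells. Scrublet scores were computed and no cell was removed for them; its automatic call marked 0 cells of 2D-2, so leaving out the 8% highest scores was tried instead. Further alternatives were stricter cell limits, another gene filter, leaving out each library, and 3 cell limits added after seeing the data.

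Named genes were those past an adjusted p of 0.05 with a mean of at least 50 CPM (for class comparisons in the class where they were higher), the same direction in every library or no overlap of groups, taking the 15 largest on each side for 2D against 0D, and the 15 higher and 10 lower for the other peptide-hormone cells, beside members of the gene lists. The members and lists were chosen with earlier results of these data known. Replicate numbers were not used to pair the libraries in the main test, and the labels do not say whether they mark pairs. The deviations of same-numbered libraries from their group means correlated at -0.064. With 2 libraries a group the 2 pairs give the same value, which cannot decide the question. Some results of list members are counted and not reported by name here.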

Additional observations from a re-analysis of the deposited data

Results flagged for a closer look

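For 3 genes the 2D against 0D change in ghrelin cells differed from that in the other peptide-hormone cells by edgeR's quasi-likelihood test of the difference itself. The log2 difference of changes was -3.77 for Dmbt1, -4.43 for Ube2c and -3.32 for Top2a. In 0D-1 the deepest ghrelin cell held 64.8% of the Dmbt1 UMIs, 85.4% of the Ube2c UMIs and 67.6% of the Top2a UMIs, and in 0D-2 it held 88.8%, 85.5% and 94.3%.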

How the results depend on the processing

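The 29 genes called between 2D and 0D numbered 17 with DESeq2, 134 with every gene of at least 1 UMI, 5 without the 8% highest doublet scores, 1 with Ghrl at 50 CP10K or more, 50 without cells over 500 CP10K of other-lineage markers, 2 with members thinned to at most 3000 UMIs, and 3 to 126 with 1 library left out (126 with 0D-1 out, 60 with 0D-2 out, 3 with 2D-1 out and 63 with 2D-2 out). The last 2 cell limits, and that on cells over 10000 UMIs, were chosen after seeing the data; without cells over 10000 UMIs Pycard reversed, to a log2 change of 0.70. With the replicate number as a block 8 genes were called, 7 of them among the 29. Against the other peptide-hormone cells the 634 genes became 343 with DESeq2, 1051 with every gene of at least 1 UMI and 326 to 776 with 1 library left out (387 without 2D-1, 326 without 2D-2). Against enterochromaffin cells 1438 became 805 with DESeq2. The 3 differences of changes became 1 without the highest doublet scores, 69 with every gene of at least 1 UMI, 39 with Ghrl at 50 CP10K or more, 0 with thinned members and 0 to 40 with 1 library left out (22 with 0D-1 out, 40 with 0D-2 out, 0 with 2D-1 out and 1 with 2D-2 out). Of the named genes' alternatives against the other peptide-hormone cells, 674 kept their direction and side of the threshold and 28 lost the call, as Cirbp, Gipr, Rfx3, Scg2, Slc5a1 and Sox4 did in some. With 1 library left out, its group keeps 1 library, which is assumed to vary like the others. The causes were not tested. Shares of cells rest on 31 to 48 ghrelin cells per library.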

Other observations

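Among genes not described above, Cirbp, which encodes a cold-inducible RNA-binding protein, was higher in ghrelin cells than in the other peptide-hormone cells (99.1 ± 27.1 against 58.0 ± 7.55 CPM, SD, n = 4 libraries; log2 0.66 ± 0.18, edgeR adjusted p = 0.0371), a call lost in some alternatives. Of the heat shock list, 8 of 8 tested genes lay above a log2 change of 0 from 0D to 2D without members over 10000 UMIs (median 0.46, 1 passed), against 5 of 8 over all members (median 0.24, 0 passed). The ghrelin processing list lay above 0 in 3 of 5 over all members (median 0.12) and in 0 of 5 without those cells (median -0.27), with 0 passed in either. Clock genes had 2 of 19 tested between 2D and 0D, and 0 passed.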
